A study of Mus musculus with 18 samples.

Results

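The 9 genes described here, Trp63, Acta2, Myh11, Cnn1, Oxtr, Mylk, Tagln, Actg2 and Lmod1, mark the myoepithelial cells of the mammary gland or act in them. They were chosen by symbol, with earlier results of these data known, and each of the 9 has a single row among the 55450 genes of the deposited count table. All 9 had enough counts to be tested, as 19186 genes in all had. Trp63 encodes p63, Oxtr encodes the oxytocin receptor, and the other 7 encode actins, myosin and proteins that bind or regulate them, called the contractile members here.

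Expression was measured by RNA sequencing of 18 female mice on a C57Bl/6 background, with 1 library per mouse. B1/P/Rbf tumors (n = 5) arose in mice with floxed Brca1 and Trp53 alleles (Brca1 fl/fl, Trp53 fl/fl) and 1 copy of the TgK18GT121 transgene, B1/P tumors (n = 5) in mice with both floxed genes and no transgene, and P/Rbf tumors (n = 5) in mice with floxed Trp53 and the transgene. All 3 tumor groups therefore share the Trp53 alleles, and all were induced in adult females by adenovirus carrying Cre, given through the nipple into the ducts. The transgene makes T121, a piece of SV40 large T antigen that binds the pRb family, once Cre has acted, and it is driven by the promoter of keratin 18, a keratin of luminal cells, whereas the Cre itself was driven by the CMV promoter, which is not specific to a cell type. The 3 normal glands came from wild type mice, and their age is not given in the sources used here.

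Myoepithelial cells form the outer, basal layer of mammary ducts and alveoli and contract to expel milk. Oxytocin binds its receptor on these cells, Gq signaling releases calcium, and calcium then leads to activation of myosin light chain kinase, which starts the sliding of myosin on smooth muscle actin. p63 is a transcription factor of the p53 family found in nuclei of the basal layer, while the contractile genes are shared with smooth muscle of vessels, pericytes and myofibroblasts and are known targets of serum response factor (SRF) and its coactivators. In bulk tissue, fewer cells of a type and less RNA per cell cannot be told apart.

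SRF binds a 10-base element called the CArG box, and promoter windows of RefSeq genes on build GRCm38.p6, from 250 bases before to 50 bases after the transcription start, held entries for 5 members, Acta2, Cnn1, Lmod1, Mylk and Oxtr. Windows of 4 of them are shown because Oxtr and Cnn1 differed most between the tumor groups and because Acta2 and Lmod1 contain CArG-like stretches. Capitals mark stretches that match the CArG box, which reads the same on both strands, at all but 1 base.
Acta2, chr19:34255324-34255623, minus strand: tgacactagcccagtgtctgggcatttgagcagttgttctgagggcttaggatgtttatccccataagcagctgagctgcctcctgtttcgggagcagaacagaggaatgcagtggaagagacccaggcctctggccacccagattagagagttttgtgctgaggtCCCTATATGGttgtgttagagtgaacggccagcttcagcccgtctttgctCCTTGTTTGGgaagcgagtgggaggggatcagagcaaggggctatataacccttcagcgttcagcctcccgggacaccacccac
Lmod1, chr1:135324563-135324862, plus strand: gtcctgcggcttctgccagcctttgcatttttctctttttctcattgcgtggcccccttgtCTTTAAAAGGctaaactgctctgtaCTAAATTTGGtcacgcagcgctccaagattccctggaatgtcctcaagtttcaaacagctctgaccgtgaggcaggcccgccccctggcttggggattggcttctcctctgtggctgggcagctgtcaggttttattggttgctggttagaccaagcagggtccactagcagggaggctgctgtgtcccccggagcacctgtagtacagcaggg
Cnn1, chr9:22099003-22099302, plus strand: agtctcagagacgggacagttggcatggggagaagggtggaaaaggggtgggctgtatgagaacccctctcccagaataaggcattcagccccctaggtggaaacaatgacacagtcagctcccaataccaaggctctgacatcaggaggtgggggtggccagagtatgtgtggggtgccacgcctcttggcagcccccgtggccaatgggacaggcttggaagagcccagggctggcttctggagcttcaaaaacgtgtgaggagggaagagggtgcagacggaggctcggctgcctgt
Oxtr, chr6:112489776-112490075, minus strand: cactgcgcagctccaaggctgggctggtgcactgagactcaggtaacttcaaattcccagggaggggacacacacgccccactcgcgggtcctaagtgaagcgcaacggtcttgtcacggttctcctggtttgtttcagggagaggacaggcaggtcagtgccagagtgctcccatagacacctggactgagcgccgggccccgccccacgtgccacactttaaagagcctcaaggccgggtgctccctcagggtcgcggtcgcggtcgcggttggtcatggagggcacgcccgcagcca

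The Acta2 window held CCCTATATGG at position −84 and CCTTGTTTGG at −34 relative to the start, and the Lmod1 window held CTTTAAAAGG at −189 and CTAAATTTGG at −164. None of the 5 windows held an exact CArG box, which only 1.63% of 32851 windows of the same 300 bases did. A stretch with at most 1 base off was found in 21.1% of all windows, so its presence in 2 of the 5 describes these letters only, and binding of SRF was not measured.

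Counts were scaled to the size of each library by the TMM method, given as CPM, and tested in one edgeR quasi-likelihood fit of all 18 samples, and a gene was called when its Benjamini-Hochberg adjusted p over all tested genes was 0.05 or less. Library totals ranged from 27661173 to 37794889 counts. Of the floxed genes, Trp53 was called lower in each tumor group than in normal glands. Brca1 was called lower in B1/P than in P/Rbf tumors (log2 fold change −2.37, adjusted p = 0.000845), but B1/P/Rbf tumors, at 29.8 ± 8.97 CPM against 79.0 ± 32.7 CPM, were not called (adjusted p = 0.0903), and all 3 tumor groups were called higher in Brca1 than normal glands, which had 5.45 ± 0.735 CPM. Counts per gene do not show whether a floxed exon is present. The paper reports recombined floxed alleles by PCR in all mammary tumors. By RT-qPCR of tumors used for RNA sequencing, it reports loss of Brca1 expression except in B1/P/Rbf tumor 208863, where the loss was partial. The normal glands were whole tissue, in which 7 skeletal muscle markers summed to between 23078 and 46872 CPM and 5 adipocyte markers to between 9182 and 13247 CPM, against at most 594 and 172 CPM in any tumor. Earlier work inferred 2 library sets from published fold changes, with mouse numbers up to 246361 and from 248662 up. No label names this division, the mouse numbers leave a wider gap from 255232 to 287822, and the paper states that the 18 samples were pooled for sequencing. It is used here only as an alternative. The first inferred set holds every B1/P/Rbf tumor with 225068, 225070 and 246361 of B1/P. The second holds 255232 and 248662 of B1/P with every P/Rbf tumor and gland. Only B1/P tumors fall in both sets, so a term for the sets is estimated from differences among B1/P tumors alone. With that term, values for B1/P/Rbf tumors against P/Rbf tumors or glands carry over this difference among B1/P tumors. They are no measured correction for a batch.

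The RNA of Trp63 is described first, and p63 protein was not measured in these data. Trp63, on chromosome 16 from 25683763 to 25892102 on the plus strand, had 74.9, 7.91, 268, 86.9 and 306 CPM in B1/P tumors 225068, 225070, 246361, 255232 and 248662. In B1/P/Rbf tumors 208855, 208857, 208863, 209490 and 210906 it had 12.1, 0.621, 28.0, 21.7 and 20.5 CPM. P/Rbf tumors 287842, 287845, 290860, 287822 and 290845 had 7.54, 8.77, 66.4, 7.16 and 3.68 CPM. Normal glands 330154, 330155 and 330156 had 22.9, 15.2 and 19.9 CPM. Of the B1/P tumors, 4 thus lay above every other sample, with B1/P tumor 225070 among the lower values, and B1/P/Rbf tumor 208857 was the lowest of all with 23 counts.

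Relative to B1/P/Rbf tumors, Trp63 was 8.97-fold higher in B1/P tumors (log2 fold change 3.17, standard error 0.98, adjusted p = 0.0358). Relative to P/Rbf tumors it was 7.95-fold higher (log2 fold change 2.99, standard error 0.98, adjusted p = 0.0408). In both comparisons 4 of 5 B1/P tumors lay above every tumor of the other group (exact permutation tests of log2 CPM, p = 0.0476 and 0.0238). Both calls were near the threshold. Against B1/P/Rbf tumors the call ended when any 1 of the 5 B1/P/Rbf tumors, or B1/P tumor 246361 or 248662, was left out (adjusted p from 0.051 to 0.0782), with limma-voom (0.0653) and in a fit of both groups alone (0.0555), while the log2 fold change stayed between 2.72 and 3.47 over all samples left out. Against P/Rbf tumors it ended without B1/P tumor 246361 or 248662 or without P/Rbf tumor 287842, 287845, 287822 or 290845 (adjusted p from 0.0759 to 0.0872), with limma-voom (0.0762) and in a fit of both groups alone (0.087), and without P/Rbf tumor 290860 the log2 fold change rose to 4.45 (adjusted p = 0.00736). Within the first library set the means were 117 CPM in 3 B1/P tumors and 16.6 CPM in 5 B1/P/Rbf tumors, and within the second 197 CPM in 2 B1/P tumors and 18.7 CPM in 5 P/Rbf tumors, a fit with a term for the sets giving adjusted p = 0.091 and 0.0695.

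B1/P/Rbf and P/Rbf tumors did not differ in Trp63 beyond their spread (log2 fold change −0.18, standard error 0.91, adjusted p = 0.956, and 1.29 without P/Rbf tumor 290860, adjusted p = 0.487). Neither was called against normal glands, with means of 16.6 ± 10.6 and 18.7 ± 26.7 CPM against 19.3 ± 3.84 CPM (SD, n = 5, 5 and 3). Of the P/Rbf tumors, 4 lay below every gland, and without 290860 their log2 fold change against glands went from −0.05 to −1.51, not called. B1/P tumors, at 149 ± 131 CPM, had a log2 fold change of 2.94 against normal glands that was not called either (standard error 1.20, adjusted p = 0.0672), but was without B1/P tumor 225070 (adjusted p = 0.0332), with DESeq2 (0.0108), with library sizes alone (0.0411) and in a fit of both groups alone (0.0415). Counts per gene do not tell the TA and ΔN transcripts of Trp63 apart. Gm27005 and Gm24928 overlap the gene but none of its exons.

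**Figure D1:**
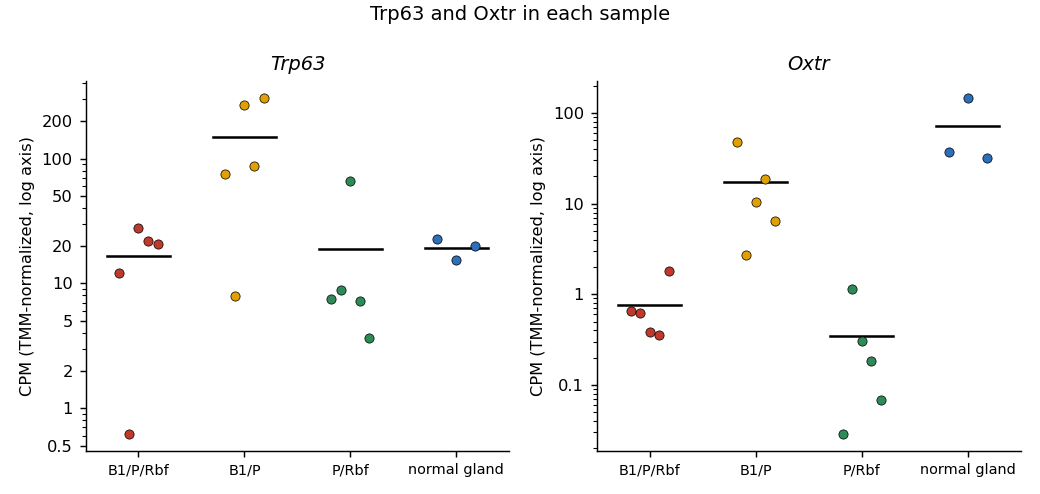
CPM (TMM-normalized, log axis) of Trp63 and Oxtr in each of 18 samples by group, with 1 point per mouse and a bar at the group mean. B1/P tumors lie from 2.70 to 48.5 CPM of Oxtr, above every other tumor, and 4 of 5 lie above all other samples in Trp63.

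The oxytocin receptor gene separated the tumor groups most widely. Oxtr, on chromosome 6 from 112473683 to 112489943 on the minus strand, had 48.5, 2.70, 10.4, 18.8 and 6.40 CPM in B1/P tumors 225068, 225070, 246361, 255232 and 248662. In B1/P/Rbf tumors 208855, 208857, 208863, 209490 and 210906 it had 0.652, 0.621, 0.386, 0.355 and 1.82 CPM. P/Rbf tumors 287842, 287845, 290860, 287822 and 290845 had 1, 36, 12, 7 and 2 counts, which is 0.0288, 1.14, 0.304, 0.184 and 0.0681 CPM. Normal glands had 37.0, 147 and 31.9 CPM in 330154, 330155 and 330156. Every B1/P tumor lay above every other tumor, and only B1/P tumor 225068 reached the range of the glands.

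Oxtr was 22.7-fold higher in B1/P than in B1/P/Rbf tumors (log2 fold change 4.50, standard error 0.93, adjusted p = 0.00392) and 50.3-fold higher than in P/Rbf tumors (log2 fold change 5.65, standard error 0.99, adjusted p = 0.00159). The groups did not overlap in either comparison (exact permutation test, p = 0.00794, the smallest that 5 against 5 allow). These calls held in each of the 16 alternatives tried per comparison, including every sample left out in turn. Against B1/P/Rbf tumors the log2 fold change fell to 3.65 without B1/P tumor 225068 and rose to 5.10 without B1/P/Rbf tumor 210906. Against P/Rbf tumors it fell to 4.80 without 225068 and rose to 6.82 without P/Rbf tumor 287845. Relative to normal glands Oxtr was lower in B1/P/Rbf tumors (log2 fold change −6.56, standard error 1.05, adjusted p = 0.00013) and in P/Rbf tumors (−7.70, standard error 1.11, adjusted p = 4.57e-05), without overlap. Without gland 330155, the highest, these differences were −5.42 and −6.55, still called. The first was −7.15 without B1/P/Rbf tumor 210906 and −7.26 with the library-set term, and the second −8.87 without P/Rbf tumor 287845. The difference of −2.05 on the log2 scale in B1/P tumors was not called (standard error 0.90, adjusted p = 0.0874), and 4 of 5 tumors lay below every gland. Without B1/P tumor 225068, which was the highest, it was −2.91 and was called (adjusted p = 0.0231), as it was with limma-voom (−2.38, adjusted p = 0.00989). Without gland 330155 it was −0.93 and not called (adjusted p = 0.538). B1/P/Rbf tumors had 0.766 ± 0.603 CPM and P/Rbf tumors 0.344 ± 0.455 CPM, which was not called (adjusted p = 0.557).

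The contractile members were higher in B1/P tumors in mean, but most did not pass the test. With every tumor kept, all 9 log2 fold changes of B1/P over B1/P/Rbf tumors were positive, from 0.43 for Myh11 to 4.50 for Oxtr, with a median of 1.35 beside 0.06 over all genes tested. Trp63, Cnn1 and Oxtr were called higher, 3 of 9, where 9.29% of all genes tested were called higher. Only Oxtr showed no overlap, as 10.5% of all genes did in either direction. B1/P/Rbf tumor 208855 was the highest of its group in all 7 contractile members, so leaving it out raises their differences. Without it, every contractile member but Myh11 was called higher than in B1/P/Rbf tumors, 7 members in all with Oxtr, while Trp63 was not (adjusted p = 0.0684). That tumor was singled out after its values were seen. Against P/Rbf tumors all 9 were again positive, with a median of 1.17 beside 0.05, and 2 of 9, Trp63 and Oxtr, were called higher, where 10.8% of all genes were. Oxtr and Lmod1 showed no overlap there, as 8.86% of all genes did. Both comparisons share the B1/P tumors.

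Cnn1, which encodes calponin, an actin-binding protein that restrains myosin, spread most among B1/P tumors. Cnn1, on chromosome 9 from 22099216 to 22109630 on the plus strand, had 48.7, 10.8, 1.38, 51.0 and 1.17 CPM in B1/P tumors 225068, 225070, 246361, 255232 and 248662. B1/P/Rbf tumors 208855, 208857, 208863, 209490 and 210906 had 6.98, 0.216, 2.84, 1.55 and 0.0974 CPM, the last from 3 counts. In all, 3 B1/P tumors lay above every B1/P/Rbf tumor, and 246361 and 248662 lay within their range. The difference came to 3.27 on the log2 scale (standard error 1.08, adjusted p = 0.0466), with an exact permutation p of 0.111 on log2 CPM. Without B1/P/Rbf tumor 208855 it was 4.26 (adjusted p = 0.0231). The call ended without any 1 of B1/P/Rbf tumors 208857, 208863, 209490 and 210906 or of B1/P tumors 225068 and 255232 (adjusted p from 0.0779 to 0.103), without the filter on low counts (0.0549), in a fit of these groups alone (0.121), with limma-voom (0.141) and with the library-set term (0.0915). P/Rbf tumors had from 2.44 to 7.80 CPM, with 3 B1/P tumors above them all and 2 below them all (log2 fold change 2.27, adjusted p = 0.129), and with limma-voom the log2 fold change was 0.58 (adjusted p = 0.754).

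Acta2, smooth muscle α-actin, had the highest level per kilobase of exon of the 9 members in every group, with means from 25.5 CPM per kb in B1/P/Rbf tumors to 69.5 CPM per kb in normal glands. The gene lies on chromosome 19 from 34241090 to 34255590 on the minus strand. Its CPM in B1/P tumors 225068, 225070, 246361, 255232 and 248662 was 234, 197, 148, 84.5 and 51.9. In B1/P/Rbf tumors 208855, 208857, 208863, 209490 and 210906 it was 139, 28.5, 51.2, 39.5 and 22.1. P/Rbf tumors ranged from 31.8 to 105 CPM and normal glands from 109 to 200 CPM. In all, 3 B1/P tumors lay above every B1/P/Rbf tumor, and B1/P/Rbf tumor 208855 stood far above the other 4. The log2 fold change of 1.35, with a standard error of 0.49, missed the threshold (adjusted p = 0.0674), but the gene was called without 208855 (log2 fold change 2.02, adjusted p = 0.00668), without B1/P tumor 248662 (0.0387), with DESeq2 (0.0311), with limma-voom (0.0417) and with the library-set term (0.0266).

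Tagln, which encodes the actin-bundling protein transgelin, followed Acta2 in level, with means of 17.5 CPM per kb in B1/P/Rbf, 43.0 in B1/P and 24.9 in P/Rbf tumors, against 49.3 in glands. It lies on chromosome 9 from 45929619 to 45936058 on the minus strand, and had 102, 185, 52.7, 56.98 and 30.1 CPM in the B1/P tumors in the order given above. B1/P/Rbf tumors ranged from 12.7 to 86.5 CPM, with 208855 the highest, and 2 B1/P tumors lay above them all. Its log2 fold change of 1.29, with a standard error of 0.55, missed the threshold (adjusted p = 0.12), and passed it without 208855 (log2 fold change 1.96, adjusted p = 0.0201). Exons of Pcsk7 and Gm48529 overlap Tagln on the other strand, and reads of these genes cannot be told apart if the counting did not use the strand, which is not given in the sources used here.

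Actg2, γ-enteric smooth muscle actin, had 23.8, 35.5, 14.8, 12.0 and 25.4 CPM in B1/P tumors 225068, 225070, 246361, 255232 and 248662, against 1.36 to 21.2 CPM in B1/P/Rbf tumors (log2 fold change 1.44, standard error 0.62, adjusted p = 0.121). It lies on chromosome 6 from 83512905 to 83536265 on the minus strand. In all, 3 B1/P tumors lay above every B1/P/Rbf tumor, of which 208855 was again the highest, and without it the gene was called (log2 fold change 2.16, adjusted p = 0.0246), as it was with limma-voom (0.0329). Actg2 was the only contractile member with a higher mean in all 3 tumor groups than in normal glands, where it had 9.15, 3.73 and 5.65 CPM. Every B1/P tumor lay above every gland (log2 fold change 1.85, standard error 0.76, adjusted p = 0.0689), and the difference passed the threshold in DESeq2, in limma-voom, with library sizes alone and in a fit of both groups alone (lowest adjusted p = 0.0142).

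Mylk, the kinase that phosphorylates the myosin light chain, lies on chromosome 16 from 34745210 to 35002420 on the plus strand and had 29.0 to 58.7 CPM in B1/P tumors, 9.90 to 40.9 CPM in B1/P/Rbf tumors and 9.62 to 44.4 CPM in P/Rbf tumors. Only B1/P tumor 246361 lay above every B1/P/Rbf tumor, and the log2 fold changes of 1.03 and 0.89 were not called (adjusted p = 0.1 and 0.139). Mylk was called in the first comparison without 208855 (0.017) and with limma-voom (0.0384), and in the second without P/Rbf tumor 287822 (0.028). Both tumors were the highest of their group. Exons of E130310I04Rik and Gm21691 overlap Mylk on the other strand.

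Lmod1, which encodes the smooth muscle actin nucleator leiomodin, lies on chromosome 1 from 135324807 to 135368065 on the plus strand and had 3.22 to 6.71 CPM in B1/P tumors and 0.604 to 2.73 CPM in P/Rbf tumors. These groups did not overlap, yet the log2 fold change of 1.31, with a standard error of 0.49, missed the threshold (adjusted p = 0.0676, exact permutation p = 0.00794), while DESeq2 called it (0.0279). B1/P/Rbf tumors had 0.674 to 4.65 CPM, again with 208855 the highest (log2 fold change 1.25, adjusted p = 0.0862), and without it the gene was called (log2 fold change 1.85, adjusted p = 0.0122), as it was by DESeq2 (0.0385).

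Myh11, the smooth muscle myosin heavy chain, differed least between B1/P and B1/P/Rbf tumors. It lies on chromosome 16 from 14194535 to 14291372 on the minus strand and had 15.3, 22.1, 20.4, 4.02 and 4.10 CPM in B1/P tumors 225068, 225070, 246361, 255232 and 248662. B1/P/Rbf tumors had from 2.69 to 28.0 CPM and P/Rbf tumors from 3.11 to 10.9 CPM. No B1/P tumor lay above the highest B1/P/Rbf tumor, 208855 (log2 fold change 0.43, standard error 0.60, adjusted p = 0.666). Without 208855 the log2 fold change was 1.34 and not called (adjusted p = 0.1).

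The split of the contractile members by library set was uneven. Within the first set all 9 members had a higher mean in the 3 B1/P tumors than in the 5 B1/P/Rbf tumors. Within the second set, 7 of 9 had a higher mean in the 2 B1/P tumors than in the 5 P/Rbf tumors, while Acta2 stood at 68.2 and 63.6 CPM, Tagln at 43.5 and 49.4 CPM and Myh11 at 4.06 and 7.16 CPM. With the library-set term the log2 fold changes against P/Rbf tumors were 0.10 for Acta2, −0.18 for Tagln and −0.82 for Myh11, none called. With only 3 and 2 B1/P tumors in them, no test was run inside a set.

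**Figure D2:**
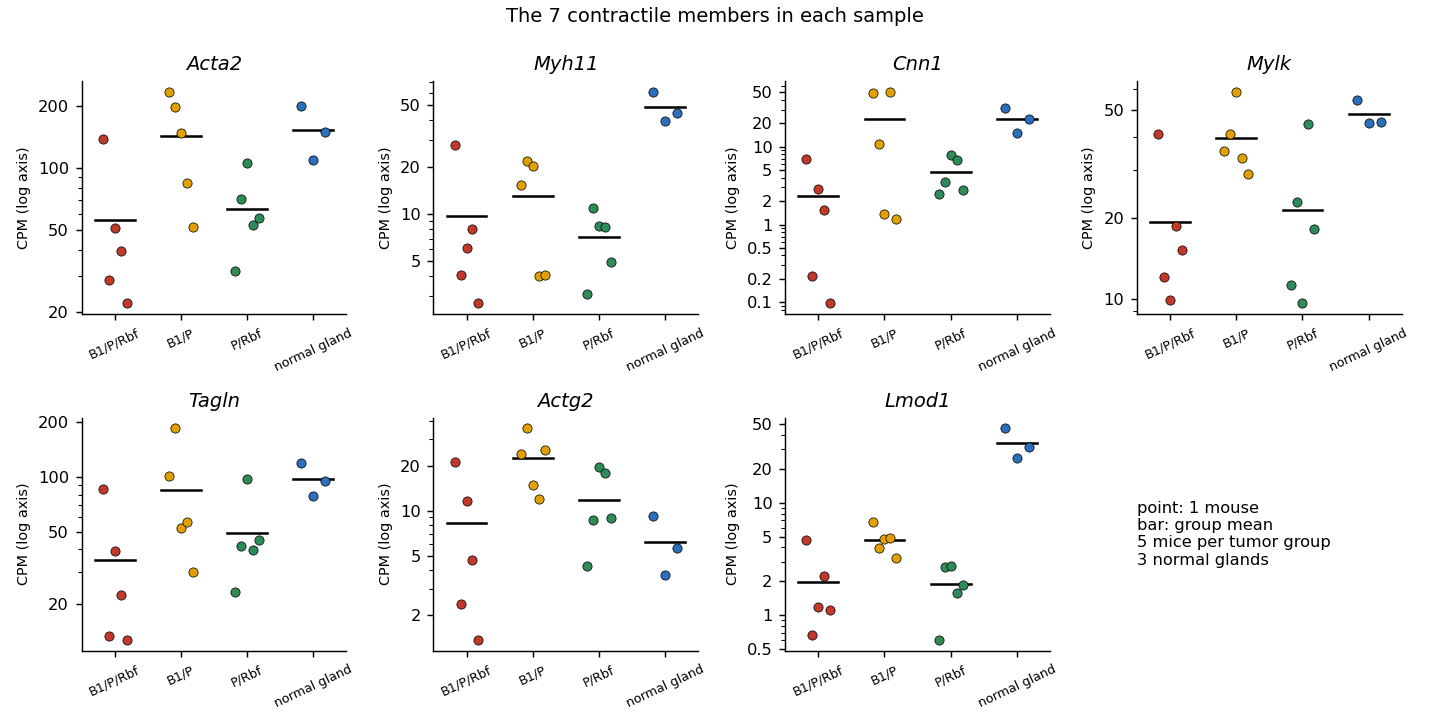
CPM (log axis) of the 7 contractile members in each sample by group, with 1 point per mouse and a bar at the group mean. B1/P/Rbf tumor 208855 is the highest of its group in every panel, and Lmod1 and Myh11 lie lower in all 15 tumors than in the 3 glands.

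P/Rbf and B1/P/Rbf tumors showed no called difference in these genes. None of the 9 members passed the edgeR test, none had an unadjusted p under 0.05, and no alternative called one, where 0.281% of all genes tested were called. The log2 fold changes ran from −1.001 for Cnn1 to 1.15 for Oxtr, 3 positive and 6 negative. Without 208855 they were −1.99 for Cnn1, −1.25 for Actg2, −1.17 for Tagln and −0.85 for Acta2, and Oxtr was 2.32 without P/Rbf tumor 287845 and 0.55 without B1/P/Rbf tumor 210906. These 2 groups share no library set. Over all alternatives the log2 fold change ran from −1.69 to 0.075 for Acta2 and from −1.88 to −0.099 for Tagln. In the edgeR fit of all samples the standard errors ran from 0.41 for Mylk to 1.00 for Cnn1, and a p that misses the threshold does not show that the levels are equal.

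Against normal glands some members were called lower in every tumor group, and differences between the counts of the groups were not tested. In B1/P/Rbf tumors 6 of 9 members were called lower, Acta2, Myh11, Cnn1, Oxtr, Mylk and Lmod1, where 20.0% of all genes tested were, and 5 did not overlap with the glands, where 50.5% of all genes did not. In P/Rbf tumors Myh11, Oxtr and Lmod1 were called lower, 3 of 9, beside 20.3% of all genes, and 6 of 9 did not overlap, beside 46.5%. In B1/P tumors Myh11 and Lmod1 were called lower, 2 of 9, beside 16.9% of all genes, and 3 of 9 did not overlap, beside 41.4%. The 3 comparisons share the same glands.

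Lmod1 was lower in every tumor than in every gland, where it had 45.6, 24.9 and 31.1 CPM. Its log2 fold changes were −4.10 in B1/P/Rbf, −2.85 in B1/P and −4.16 in P/Rbf tumors (standard errors 0.57, 0.55 and 0.57, largest adjusted p = 0.000754), and these calls held in all 14 alternatives of each comparison. Without 208855 the first was −4.70. Myh11, at 61.2, 39.7 and 44.7 CPM in the glands, also lay below them in every tumor, with log2 fold changes of −2.31, −1.88 and −2.76 (adjusted p = 0.0139, 0.0417 and 0.0047). Its difference in B1/P/Rbf tumors was −3.21 without 208855 and −4.56 with the library-set term, and the call ended without gland 330154 (0.0532). With that term the difference in B1/P tumors was −3.58. Its call in B1/P tumors ended without tumor 225068, 255232 or 248662 or any 1 gland (0.0596 to 0.13), with library sizes alone (0.0824) and without the filter on low counts (0.0512).

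Cnn1 had 31.3, 14.8 and 22.6 CPM in the glands, above all B1/P/Rbf tumors (log2 fold change −3.29, standard error 1.15, adjusted p = 0.0327). The log2 fold changes of Mylk and Acta2 in B1/P/Rbf tumors were −1.32 and −1.45 (standard errors 0.47 and 0.55, adjusted p = 0.0343 and 0.0459). Each of these 3 calls ended when any library of the 8 other than 208855 was left out, with adjusted p from 0.0513 to 0.0901 for Cnn1, from 0.0574 to 0.108 for Mylk and from 0.0649 to 0.168 for Acta2. With library sizes alone, without TMM, the median of all genes moved to 0.42, and Acta2 and Mylk were no longer called (0.115 and 0.113). No B1/P/Rbf tumor shares a library set with a gland, and with the library-set term Cnn1 and Mylk were not called (0.308 and 0.105) while Acta2 was, at −2.95 (0.0206). Without 208855 the differences were −4.28 for Cnn1 and −2.11 for Acta2. Acta2 was not called without the filter on low counts (0.0585) or in a fit of both groups alone (0.0579). Tagln, with a log2 fold change of −1.49 (adjusted p = 0.0669), was called without 208855 (−2.16, adjusted p = 0.00804), with DESeq2 (0.0443), with limma-voom (0.0188) and under the stricter filter, which kept genes at a log2 CPM of 6 or more in 6 or more samples (0.0283). In P/Rbf tumors Acta2 (−1.26, adjusted p = 0.0772) was called without tumor 290860 (0.0479), with limma-voom (0.0416), under the stricter filter (0.0253) and in a fit of both groups alone (0.0218). Mylk (−1.18, adjusted p = 0.055) was called there without tumor 287822 (0.00683), with DESeq2 (0.0424) and with limma-voom (0.0128). Cnn1 lay below every gland in all 5 P/Rbf tumors (−2.29, standard error 1.12, adjusted p = 0.118) and was called in a fit of both groups alone (0.00467). In B1/P tumors the means of Acta2, Cnn1, Mylk and Tagln were 143, 22.6, 39.4 and 85.4 CPM against 153, 22.9, 48.3 and 97.9 CPM in glands, with log2 fold changes from −0.29 to −0.02 that were not called and turned positive with library sizes alone. Within the library set they share with the glands, both B1/P tumors lay below every gland in Acta2 (means of 68.2 and 153 CPM), Tagln (43.5 and 97.9 CPM) and Mylk (31.1 and 48.3 CPM), and for Cnn1 1 lay above and 1 below them all. With the library-set term the log2 fold changes were −1.16 for Acta2, −1.17 for Tagln, −0.64 for Mylk and 0.19 for Cnn1, none of them called (lowest adjusted p = 0.197).

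Markers of skeletal muscle moved with these comparisons, since all 7 were called lower in each tumor group. Their summed level was 23078 to 46872 CPM in glands, 4.57 to 22.6 CPM in B1/P/Rbf, 1.51 to 594 CPM in B1/P and 0.920 to 3.88 CPM in P/Rbf tumors, and none was at 0 throughout a group. The 5 adipocyte markers were also all called lower in each tumor group. In P/Rbf tumors 4 of 5 endothelial, 5 of 11 vascular smooth muscle and pericyte and 4 of 10 fibroblast and myofibroblast markers were called lower, in B1/P/Rbf tumors 2, 3 and 3 of them, and in B1/P tumors 2, 1 and 1. Of all genes tested, 20.3%, 20.0% and 16.9% were called lower in P/Rbf, B1/P/Rbf and B1/P tumors. In B1/P tumors 3 of 11 vascular and 2 of 10 fibroblast markers were called higher than in glands, beside 16.8% of all genes. The fibroblast count was near that share. The summed vascular markers stood at 640 to 828 CPM in glands and the fibroblast markers at 1853 to 3386 CPM. Skeletal actin Acta1 is close to 2 members in sequence, with 85.0% of 1150 aligned transcript bases identical to Acta2 and 85.0% of 1137 identical to Actg2, in runs of at most 29 bases. Acta2 had a count that was not whole, as when RSEM divides reads among genes, in 2 of 18 samples, and Actg2 in none. The part of these cells in the differences of the members from gland was not tested.

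**Figure D3:**
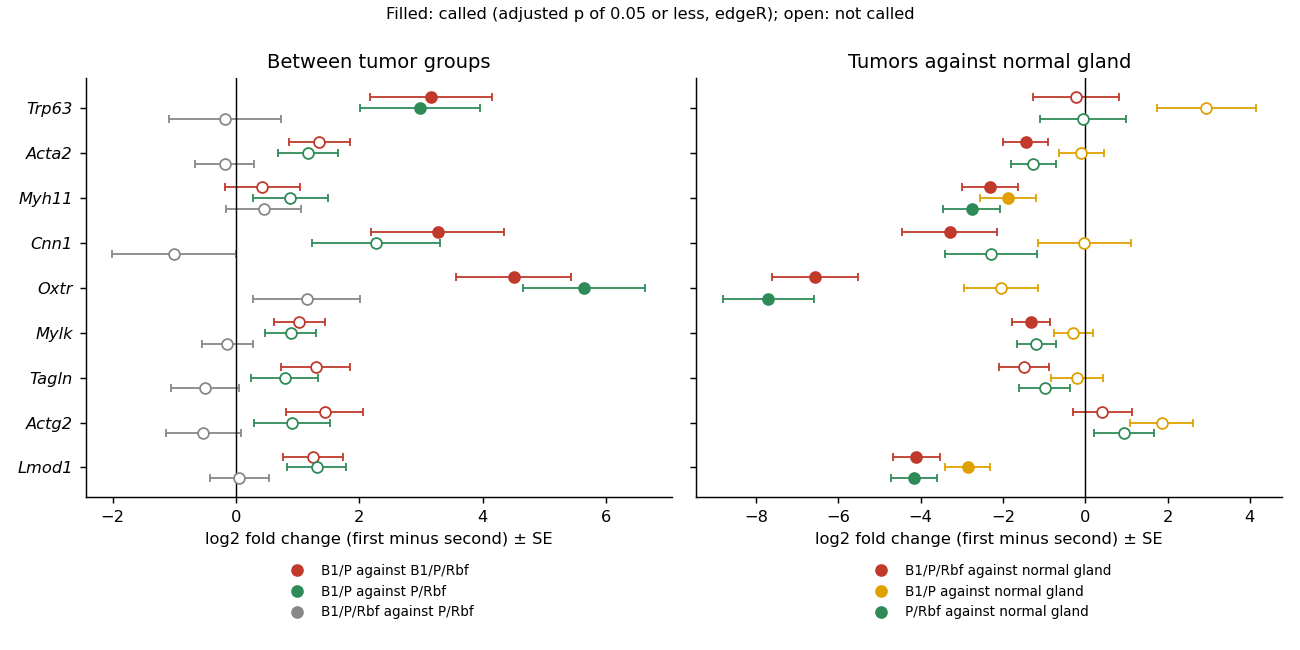
Log2 fold change of each member with its standard error from the edgeR fit, between tumor groups on the left and against normal gland on the right, with filled points for called differences. Positive values are higher in the first group named, and all 9 members are positive in both comparisons that have B1/P tumors first.

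Among tumors of one genotype the contractile members ranked more like each other than like Trp63, which is given as a description. After each group's mean was subtracted from log2 CPM, Spearman's rho over the 15 tumors was positive in all 21 pairs of contractile members, from 0.10 to 0.89 with a median of 0.60. The closest pairs were Acta2 with Tagln (0.89) and Acta2 with Myh11 (0.88). The 8 pairs with Trp63 ran from −0.23 to 0.27 with a median of 0.02, and the 7 pairs of Oxtr with contractile members from −0.14 to 0.48 with a median of 0.08. These values describe 15 tumors whose genes share library and depth.

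Single B1/P tumors showed different members at their highest. Tumors 248662 and 246361 had the highest Trp63, at 306 and 268 CPM, and the lowest Cnn1 of the group, at 1.17 and 1.38 CPM. Tumor 225070 had the lowest Trp63, at 7.91 CPM, and the highest Tagln, Actg2 and Myh11. Tumor 225068 had the highest Oxtr, Acta2 and Lmod1 with Trp63 at 74.9 CPM. The mean log2 CPM of the contractile members ran from 3.46 in 248662 to 5.23 in 225068.

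**Figure D4:**
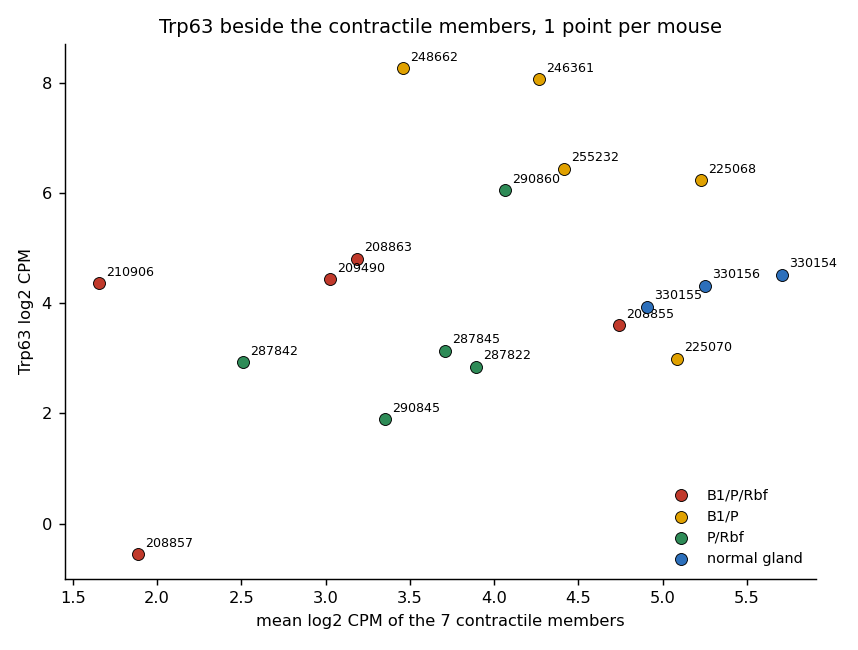
Log2 CPM of Trp63 against the mean log2 CPM of the 7 contractile members, with 1 point per mouse labelled by mouse number. B1/P tumor 248662, highest in Trp63 at 8.26, has the lowest contractile mean of its group at 3.46, and the 3 glands lie between 4.91 and 5.71 on the contractile axis.

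Over all 18 samples and 15363 tested genes averaging 1 CPM or more, the 5 genes whose log2 CPM ranked most like Trp63 were Krt5, Phyhip, Edaradd, Ccdc106 and Snai2 (rho from 0.91 to 0.84). Krt5, a keratin of basal cells, had mean CPM of 490 in B1/P, 14.4 in B1/P/Rbf and 82.4 in P/Rbf tumors and 27.4 in glands. The 5 most like the contractile mean were Myl9, Tfpi, Cryab, Jph2 and Tmem150a (rho from 0.94 to 0.91). Myl9, the smooth muscle regulatory light chain that Mylk phosphorylates, had mean CPM of 54.5, 10.2 and 14.4 in B1/P, B1/P/Rbf and P/Rbf tumors and 41.0 in glands. Cryab and Jph2 had means of 319 and 287 CPM in glands and are also known from striated muscle. These ranks include the differences between groups.

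Other genes of these pathways and of other cell types were followed on lists, whose counts stand beside 9.29% of all genes tested called higher in B1/P than in B1/P/Rbf tumors and 10.8% than in P/Rbf tumors, and beside 7.36% and 8.43% called lower. Of 18 further smooth muscle contractile and cytoskeletal genes, 4 were called higher in B1/P than in B1/P/Rbf tumors and none lower, with a median log2 fold change of 0.59. Pdlim3, Des and Myl9 had log2 fold changes of 6.33, 1.76 and 2.42 (adjusted p = 0.00027, 0.0117 and 0.0162), and the fourth was Tpm2. Des and Tpm2 are also expressed in skeletal muscle. Against P/Rbf tumors the count was also 4, with a median of 0.10. Of SRF and its coactivators 4 genes were tested, Srf, Mrtfa, Mrtfb and Myocd, and none was called between tumor groups. Mrtfa was nearest, at 89.5 ± 42.5 CPM in B1/P and 49.4 ± 10.6 CPM in B1/P/Rbf tumors (adjusted p = 0.0504).

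Of 18 genes from the oxytocin receptor to contraction, B1/P tumors had 3 called higher and 1 called lower relative to B1/P/Rbf tumors. Itpr2, a calcium channel opened by inositol trisphosphate, had a log2 fold change of 1.89 (adjusted p = 0.00182), and Gnaq, the α subunit of Gq, 1.62 (adjusted p = 0.00267). Rock2, a kinase that lowers myosin phosphatase activity, was lower in B1/P tumors, at 86.4 ± 9.94 against 174 ± 34.1 CPM (log2 fold change −1.01, adjusted p = 0.00182). Against P/Rbf tumors 3 of the 18 were called higher and 3 lower, with Gnaq and Itpr2 again among the higher and Rock2 among the lower. The median of the list was −0.17 in the first comparison, so these genes did not move one way.

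Basal markers outside the contractile apparatus were called higher in B1/P tumors for 4 of 10 genes against B1/P/Rbf and 3 of 10 against P/Rbf tumors, with none called lower. Against P/Rbf tumors Cxcl14 and Nrg1 had negative log2 fold changes, −3.15 (edgeR, adjusted p = 0.0688) and −0.04. P/Rbf tumors 287845 and 290860 held 2529 and 1425 CPM of the 10 markers summed, beside 278 to 2508 CPM in B1/P tumors. Such a sum can rest on a single marker. Cxcl14 alone had 411 ± 793 CPM in P/Rbf tumors, against 46.1 ± 37.1 CPM in B1/P tumors. Trp63 stood at 8.77 CPM in 287845 and at 66.4 CPM in 290860. Snai2, a zinc finger repressor of basal cells, had 45.3 ± 34.4 CPM in B1/P and 5.05 ± 1.09 CPM in B1/P/Rbf tumors (log2 fold change 3.16, adjusted p = 0.00371). Id4, an inhibitor of helix-loop-helix factors, had 262 ± 178 and 8.04 ± 9.40 CPM (5.02, adjusted p = 0.00659), and Dkk3 had 38.5 ± 25.7 and 8.50 ± 5.38 CPM (2.18, adjusted p = 0.0158). Against normal glands 8 of the 10 were called higher in B1/P tumors, none in B1/P/Rbf and 2 in P/Rbf tumors, where 16.8%, 17.1% and 17.4% of all genes were. Over the 15 tumors, after subtraction of group means, the mean of this list had a rho of 0.84 with Trp63 and −0.04 with the contractile mean.

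Genes known as p63 targets included 6 of 15 called higher in B1/P relative to B1/P/Rbf tumors and 3 of 15 relative to P/Rbf tumors, with none called lower. Itgb4, an integrin of hemidesmosomes, had 545 ± 112 and 198 ± 22.1 CPM (log2 fold change 1.46, adjusted p = 0.00196), Igfbp3 had 345 ± 145 and 107 ± 56.2 CPM (1.69, adjusted p = 0.00908), and the Notch ligand Jag2 had 227 ± 267 and 36.9 ± 15.5 CPM (2.62, adjusted p = 0.0138). The median of the list was 0.48. Against normal glands 11 of the 15 were called higher in B1/P, 6 in B1/P/Rbf and 6 in P/Rbf tumors, beside 16.8%, 17.1% and 17.4% of all genes. The medians there were 2.46, 1.55 and 2.17, while Trp63 itself was not called against glands in any tumor group. The mean of these targets had a rho of 0.84 with Trp63 within groups and −0.16 with the contractile mean.

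Of the other p53 family members, Trp73, which encodes p73, was called higher in B1/P tumors than in B1/P/Rbf and P/Rbf tumors, with means of 43.2 ± 38.4, 0.810 ± 0.694 and 1.19 ± 1.41 CPM (log2 fold changes 5.73 and 5.18, adjusted p = 0.00664 and 0.00947). One B1/P tumor had 0.0592 CPM, below every B1/P/Rbf tumor. The groups overlapped in both comparisons, and exact permutation tests of log2 CPM gave p = 0.0556 in each.

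Markers of other cells that hold contractile proteins were called in part. Of 11 vascular smooth muscle and pericyte markers, 5 were called higher in B1/P than in B1/P/Rbf tumors and 9 than in P/Rbf tumors. Their summed level was 648 to 1099 CPM in B1/P, 293 to 732 CPM in B1/P/Rbf and 268 to 481 CPM in P/Rbf tumors, and B1/P/Rbf tumor 208855 held the 732. Ndufa4l2, Kcnj8 and Pdgfrb had the smallest p, with log2 fold changes of 2.26, 1.68 and 1.23 (adjusted p = 0.00193, 0.00394 and 0.013). Of 10 fibroblast and myofibroblast markers, 1 was called higher against B1/P/Rbf, near the share of all genes, and 4 against P/Rbf tumors, with median log2 fold changes of 1.34 and 1.04 beside 1.29 and 0.91 for the contractile members. Over the 15 tumors their mean log2 CPM had a rho of 0.79 with the contractile mean, and 0.51 after subtraction of group means. For the vascular smooth muscle and pericyte markers these values of rho were 0.51 and 0.23, and the median log2 fold changes 1.04 and 1.56. The summed level of the fibroblast and myofibroblast markers was 13782 CPM in B1/P tumor 225070 and 5446 CPM in B1/P/Rbf tumor 208855, the highest of each group. None of 5 endothelial markers was called in either comparison, and 5 of 11 luminal markers were called lower in B1/P than in B1/P/Rbf tumors. Against P/Rbf tumors 6 luminal markers were called lower and 1, Kit, was called higher (log2 fold change 3.29, adjusted p = 0.0124). Of 7 skeletal muscle markers 5 were called higher in B1/P than in B1/P/Rbf tumors and 6 than in P/Rbf tumors. B1/P tumor 248662 held 594 CPM of them and the other 4 B1/P tumors at most 10.0 CPM. No marker of these lists was at 0 in all samples of a group, and the part of these cells in the values of the contractile members was not tested.

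**Figure D5:**
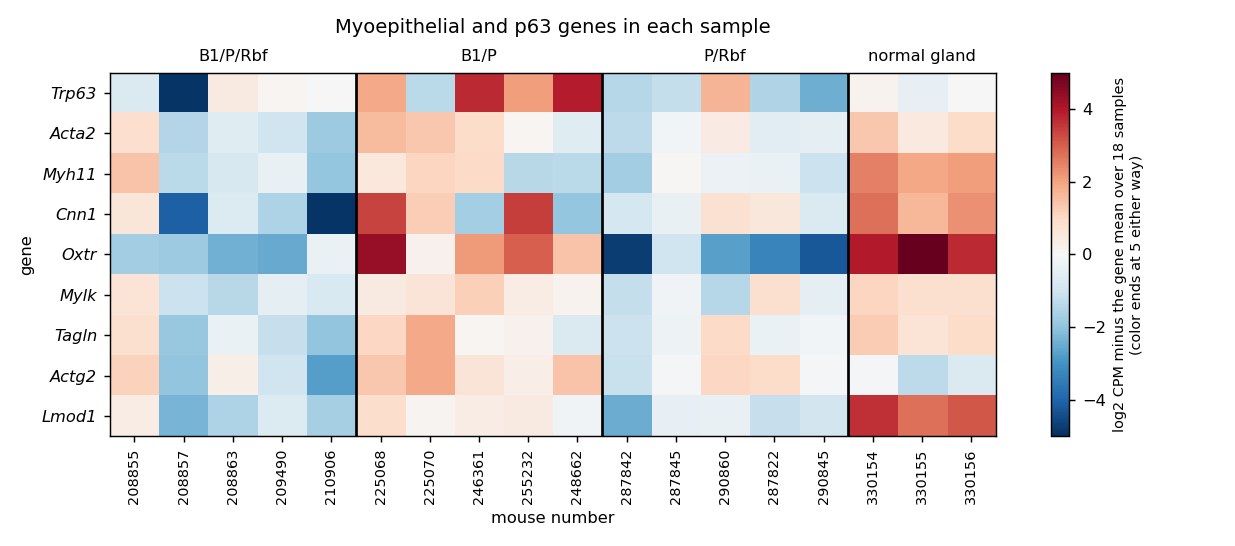
Log2 CPM of the 9 members minus each gene's mean over 18 samples, by mouse and group, with red above and blue below the mean. The 4 highest values of Trp63 are those of B1/P tumors, Oxtr is red in all 5 B1/P tumors and in the 3 glands, and the contractile members are mostly blue in B1/P/Rbf tumors except 208855.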

How the data were processed

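Stranded mRNA libraries of 15 mammary tumors and 3 normal glands were sequenced in pairs of reads by the authors. The deposited values are RSEM expected counts, with no normalization or filter, of which 5.61% are not whole. Processing notes of the submitters name cutadapt 1.18, RSEM 1.3.0 and DESeq2 1.28.1. A human reference is named in the methods, but every one of 55450 identifiers is in GENCODE M21 (mouse build GRCm38), from which positions and exon lengths were taken.

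After rounding, expected counts entered edgeR 4.0.16 in R 4.3.3 (filterByExpr with a minimum count of 10, TMM, glmQLFit and glmQLFTest, group as the only term, 6 comparisons). Log2 CPM used a prior count of 2. Exact permutation tests were two-sided. Python 3.11.15 with scipy 1.17.1 and Biopython 1.88 did the rest. Each library came from a different mouse and was counted as a sample of its own. None of 33 pairs of libraries of one group agreed within counting noise (chi-square per degree of freedom of 27.6 to 578, over genes with 25 or more counts in the pair). Separate mice differ by more than counting noise in any case, so these values are no test of independence.

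The members and the gene lists were chosen with earlier results of these data known. Named genes were all members, the 3 genes of a list with the smallest p between B1/P and B1/P/Rbf tumors and those called against their list, and the 5 genes most like Trp63 or the contractile mean. A further gene that this rule named is counted in its list but not reported here. Other genes named beside a count were chosen after their values were seen. Alternatives were DESeq2 1.42.0, limma-voom (limma 3.58.1, quantile-normalized), TMM omitted, all 32772 genes with a rounded count above 0, a stricter filter (log2 CPM of 6 or more in 6 or more samples, 4551 genes), a fit of the groups compared, a term for 2 library sets, and each sample left out.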

Additional observations from a re-analysis of the deposited data

Results flagged for a closer look

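Within each tumor group of 5, the highest and lowest value of every member were compared with their nearest neighbor by Dixon's ratio of gap to range, at a critical value of 0.71. Of 27 groups tested, 6 held a value past it. The ratio was taken on CPM and not on log2 CPM, where the gaps differ, and members of one tumor are not independent. The number that chance alone would give on this scale was not estimated. P/Rbf tumor 290860 had 66.4 CPM of Trp63 (ratio 0.919), while the other 4 P/Rbf tumors had at most 8.77 CPM. B1/P/Rbf tumor 208855 stood out in 3 contractile members, at 139 CPM of Acta2 (0.751), 28.0 CPM of Myh11 (0.789) and 40.9 CPM of Mylk (0.719). The same tumor had the highest summed fibroblast (5446 CPM), vascular smooth muscle (732 CPM), endothelial (325 CPM) and adipocyte (172 CPM) markers of its group. Oxtr was high for the group at 1.82 CPM in B1/P/Rbf tumor 210906 (0.797) and at 1.14 CPM in P/Rbf tumor 287845 (0.752), from 56 and 36 counts.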

How the results depend on the processing

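No paired analysis was possible because every library came from a different mouse and the labels give no replicate numbers. Over the log2 fold changes of 9 members in 6 comparisons, 822 alternative values were computed, of which 680 kept direction and call, 65 lost a call, 36 gained one and 41 changed sign, all of the last for differences that were not called. The calls of Oxtr between B1/P tumors and both other tumor groups, of Oxtr in both groups with T121 against gland, and of Lmod1 in all 3 groups against gland held in all alternatives that included the gene. The stricter filter, log2 CPM of 6 or more in 6 or more samples, kept only Acta2 and Tagln.

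For B1/P against B1/P/Rbf tumors, 3 members were called, 5 by DESeq2, 4 by limma-voom (Acta2, Oxtr, Mylk and Actg2, without Trp63 and Cnn1), 2 with the library-set term (Acta2 and Oxtr), 2 without a filter, 0 under the stricter filter, 1 in a fit of both groups alone, and 1 to 7 with a sample left out. For B1/P against P/Rbf tumors, 2 were called, 3 by DESeq2 (with Lmod1), 1 each by limma-voom, in a fit of both groups alone and with the library-set term, 0 under the stricter filter, and 1 to 2 with a sample left out. Against glands, B1/P/Rbf tumors had 6, with 7 each by DESeq2 and limma-voom (with Tagln), 5 each without a filter and in a fit of both groups alone, 4 each with the library-set term and with library sizes alone, 2 under the stricter filter and 2 to 7 with a sample left out. B1/P tumors had 2, called lower, with 4 in either direction each by DESeq2, by limma-voom and in a fit of both groups alone, 3 with library sizes alone, 1 without a filter, 0 under the stricter filter and 1 to 3 with a sample left out. Among the calls gained in B1/P tumors, those of Trp63 and Actg2 were higher than in glands, and those of Oxtr were lower. With library sizes alone Trp63 and Actg2 were gained as higher, and Myh11 was not called. P/Rbf tumors had 3, with 4 by DESeq2, 5 each by limma-voom and in a fit of both groups alone, 1 under the stricter filter and 3 to 4 with a sample left out. The causes were not tested, except that fewer members entered under the stricter filter.

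Log2 fold changes that changed sign were the following. With the library-set term, B1/P against P/Rbf tumors gave −0.82 for Myh11 and −0.18 for Tagln, B1/P/Rbf against P/Rbf tumors 0.57 for Trp63, −1.79 for Myh11 and −0.28 for Lmod1, and against gland 0.53 for Trp63 in B1/P/Rbf and 0.19 for Cnn1 in B1/P tumors. With limma-voom, B1/P/Rbf against P/Rbf tumors gave −0.063 for Myh11 and −0.44 for Lmod1. With library sizes alone, against gland, Trp63 stood at 0.14 in B1/P/Rbf and 0.27 in P/Rbf tumors, and B1/P tumors had 0.27 for Acta2, 0.35 for Cnn1, 0.064 for Mylk and 0.15 for Tagln, with medians of all genes at 0.42, 0.33 and 0.47 in B1/P/Rbf, P/Rbf and B1/P tumors. With a sample left out, the difference of B1/P/Rbf from P/Rbf tumors ran from −0.45 to 1.29 for Trp63, −0.85 to 0.075 for Acta2, −0.45 to 0.69 for Myh11, −0.61 to 0.32 for Mylk and −0.54 to 0.28 for Lmod1. Against gland, B1/P/Rbf tumors ranged from −0.49 to 0.091 for Trp63 and −0.31 to 0.82 for Actg2, B1/P tumors from −0.34 to 0.16 for Acta2, −0.56 to 0.29 for Cnn1 and −0.70 to 0.021 for Tagln, and P/Rbf tumors from −1.51 to 0.25 for Trp63.

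Depth limits Oxtr in P/Rbf tumors, with 1 to 36 counts, and Cnn1 in B1/P/Rbf tumor 210906, with 3 counts. Counts per gene do not tell transcripts apart, and the groups differ in the inferred library set, which no label names.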

Other observations

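Some samples carried other markers at levels apart from their group. B1/P tumor 248662 had 594 CPM of skeletal muscle markers, beside at most 10.0 CPM in the other B1/P tumors, and its Acta2, Tagln and Lmod1 were the lowest of the group. B1/P tumor 246361 had 994 CPM of squamous differentiation markers together with 268 CPM of Trp63, and P/Rbf tumor 290860 had 1505 CPM together with 66.4 CPM of Trp63, each the highest of its group in the squamous markers. After subtraction of group means, the mean log2 CPM of the 11 squamous markers had a rho of 0.80 with Trp63 over the 15 tumors. Without that subtraction rho was 0.39. Among tumor groups, B1/P had the highest mean of Trp63 but the lowest median of summed squamous markers, at 59.5 CPM. For B1/P/Rbf tumors this median was 395 CPM, and for P/Rbf tumors it was 852 CPM.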
